A study of Rattus norvegicus with 6 samples.

Results

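The chemokines described here are 9 secreted or membrane-bound attractants of the rat renal cortex: Cxcl13, Cxcl12, Cxcl1, Cxcl16, Cxcl14, Ccl2, Ccl5, Ccl19 and Cx3cl1. They were chosen by name, starting from the lower Cxcl13 levels seen in every treated animal, so the treatment contrast itself selected them and their differences are given as a description with no test. All 9 were among the 31637 genes that passed the filter on dim probes. The study measured total RNA of the renal cortex with 1 one-colour Agilent array per animal. The 6 male Sprague-Dawley rats were purchased at 5 weeks of age. Corn oil, the vehicle, was given to 3 of them for 4 weeks. The remaining 3 received 200 mg/kg of tricresyl phosphate per day for the same 4 weeks. Tricresyl phosphate is a mixture of organophosphate esters used as a plasticiser and flame retardant.

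Chemokines guide cells that carry matching G protein-coupled receptors. Homeostatic members such as Cxcl13, Ccl19 and Cxcl12 place lymphocytes and other cells in tissue, and Cxcl13 draws B cells through the receptor Cxcr5 and is made by lymphoid stroma, follicular dendritic cells and some macrophages. Inflammatory members such as Cxcl1, Ccl2 and Ccl5 rise with cytokine and NF-kB signalling and recruit neutrophils, monocytes and T cells. Cxcl16 and Cx3cl1 are made as membrane proteins and released by proteases, and in kidney both are known from tubular epithelium and endothelium. In bulk tissue, fewer cells that make a chemokine and less of its RNA per cell cannot be told apart.

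The promoters of Cxcl13 and Cxcl1 are printed because Cxcl13 carries the difference that chose the chemokines and Cxcl1 is a classical NF-kB target, so the letters before their starts can be set side by side. Each sequence is the 250 bases before the annotated gene start in RefSeq on assembly GRCr8, 5′ to 3′ on the gene's strand. Cxcl13 lies at chr14:13917921-13918170 on the minus strand and Cxcl1 at chr14:17479322-17479571 on the minus strand. Capitals mark matches to GGGAGATTT, TATAAA or the NF-kB consensus.
Cxcl13: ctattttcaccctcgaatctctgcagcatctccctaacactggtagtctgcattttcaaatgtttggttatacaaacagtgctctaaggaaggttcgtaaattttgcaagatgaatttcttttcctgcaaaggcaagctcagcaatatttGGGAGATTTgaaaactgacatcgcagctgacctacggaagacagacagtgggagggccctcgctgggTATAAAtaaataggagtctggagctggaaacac
Cxcl1: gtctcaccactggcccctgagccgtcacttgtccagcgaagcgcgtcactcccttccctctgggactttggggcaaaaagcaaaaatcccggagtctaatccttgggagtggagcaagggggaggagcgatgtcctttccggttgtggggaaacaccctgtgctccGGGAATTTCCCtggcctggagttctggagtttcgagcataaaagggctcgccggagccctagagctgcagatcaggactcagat
GGGAGATTT is known from work on lymphoid stroma as an element of the Cxcl13 promoter bound by RelB and p52 after lymphotoxin beta receptor signalling. It was found 100 to 92 bases before the Cxcl13 start, and TATAAA 33 to 28 bases before it. The NF-kB consensus was found in Cxcl1 at 84 to 75 bases before the start, and 1 base further on in the overlapping match on the other strand. Both strands were searched, and the motifs were picked with these sequences in view. Of 33469 rat promoters of the same length, 0.269% hold GGGAGATTT, 12.9% hold TATAAA and 6.33% hold the NF-kB consensus. The table gave a promoter for 7 of the 9 chemokines, and is not used here for Ccl2 and Ccl5. Among those 7, GGGAGATTT was in Cxcl13, the NF-kB consensus in Cxcl1, and TATAAA in Cxcl13 and Cx3cl1. GGGCGG, the core of a GC box, was in Cxcl12, Cxcl14 and Cx3cl1 and in 30.5% of all promoters. A match is a run of letters in this window and says nothing on binding in these animals.

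Every level below is the log2 processed signal of a probe after subtraction of its array's 75th percentile, so 0 stands for the 75th percentile and levels of different probes are not comparable with each other. A difference is the mean of the treated animals minus that of the oil animals, with the standard error (SE) of the limma fit. Across the arrays, 41503 to 43823 of 61537 probes were well above background, none was saturated, and array pairs correlated at 0.987 to 0.991. Over all genes, limma with Benjamini-Hochberg adjustment called 0 genes higher (0%) and 0 genes lower (0%) with an adjusted p below the threshold of 0.05. Its smallest adjusted p was 0.118, and 1737 genes had an unadjusted p under 0.05. Normexp background correction called 2 genes and a variance model with intensity trend and robust estimation also called 2, none of them a chemokine. The proximal tubule markers Slc34a1, Lrp2, Cubn and 5 others, the podocyte markers and the distal nephron markers were all measured above background.

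Among the 9 chemokines, 7 had a difference below 0 and 2 above, with a median of −0.10. Over all genes 59.2% lay below 0 and the median was −0.04. Cxcl13 alone had groups that did not overlap, in the lower direction. Of all genes 7.94% did not overlap in that direction, 3.84% in the higher and 11.8% in either. The 9 genes together were measured by 15 probes, each well above background on all 6 arrays, and the only 2 probes with separate groups were both of Cxcl13. The count of 7 was not stable, since it fell to 6 under quantile, normexp or cyclic loess scaling and to 5 with the slide as a block.

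**Figure D1:**
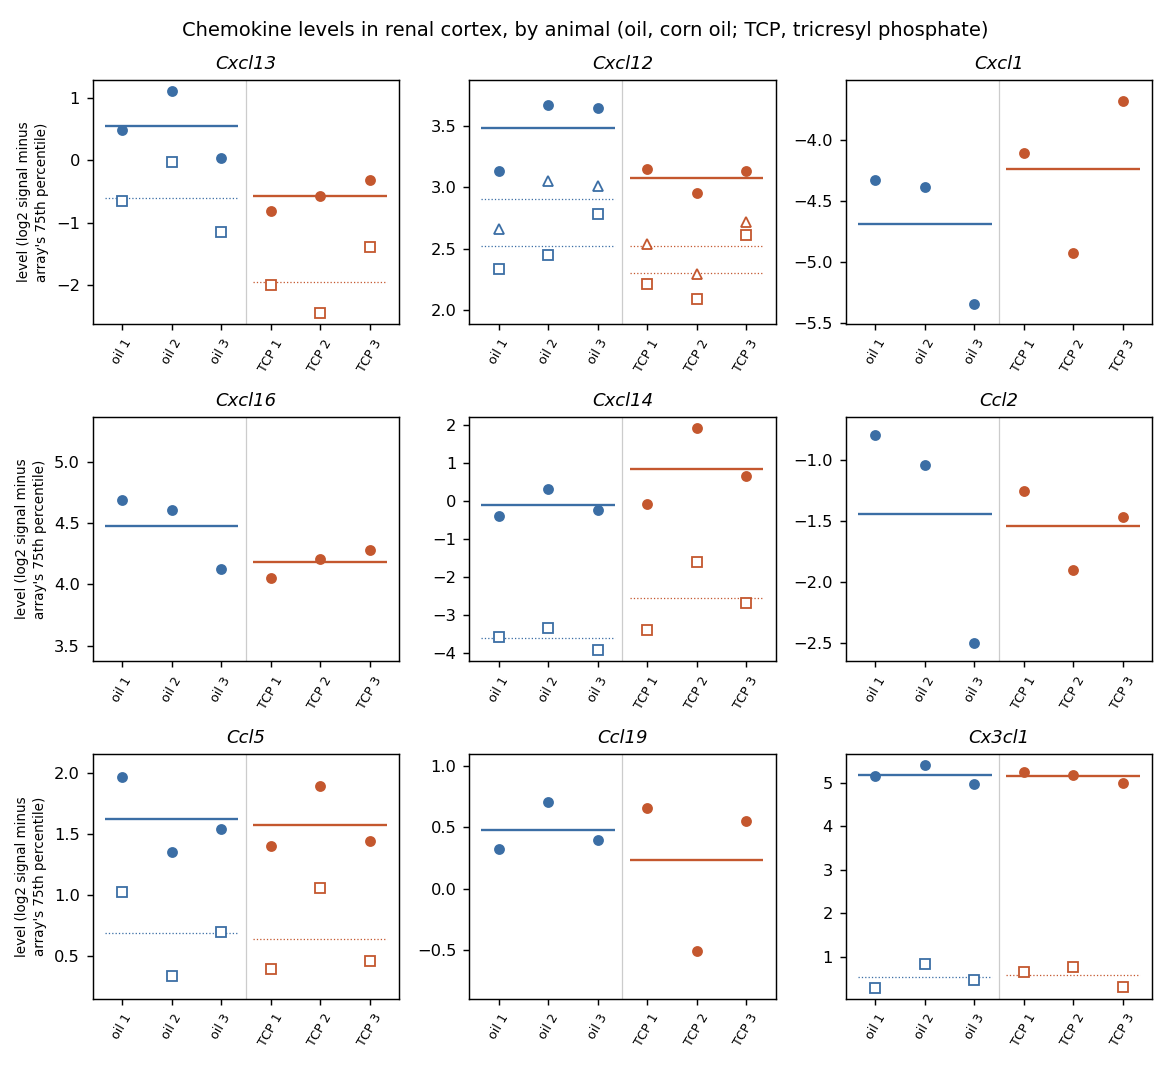
Levels of the 9 chemokines (log2 signal minus the array's 75th percentile) in each of 3 corn oil and 3 tricresyl phosphate animals. Filled circles are the probe used for the gene with its group mean as a solid line, and open symbols are further probes with dotted means. For Cxcl13 every oil animal lies above every treated animal on both probes, while the groups of the other 8 overlap on every probe.

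Cxcl13, the B cell attractant, read 0.49, 1.12 and 0.04 in the oil animals and −0.82, −0.58 and −0.31 in the treated animals. The highest treated animal lay below the lowest oil animal, and oil animal 2 stood at the top of its group. The group means were 0.55 ± 0.54 (SD, n = 3) and −0.57 ± 0.26 (SD, n = 3), a difference of −1.12 ± 0.29 (SE) or 0.461-fold. As processed signal, the same probe gave 1314, 2484 and 1048 with oil and 580, 752 and 974 with tricresyl phosphate. The second Cxcl13 probe read −0.66, −0.02 and −1.15 with oil and −2.01, −2.46 and −1.40 with treatment. Its groups were also separate and its difference was −1.35. The probes gave the same ranking of the oil animals but placed treated animals 1 and 2 in opposite order. Counted from the lowest difference, Cxcl13 ranked 85 of the 31637 genes.

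The spread of Cxcl13 within groups was wide. Its pooled SD was 0.42, larger than that of 88.5% of genes, where the median gene had 0.17. Leaving out oil animal 2 brought the difference to −0.83 and leaving out oil animal 3 brought it to −1.37. Oil animal 1 was alone on slide 1, and the other 5 arrays shared slide 2. With the slide as a block the difference was −1.15.

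Ccl19, the ligand of Ccr7 that gathers T cells and dendritic cells with Cxcl13 in lymphoid tissue, read 0.32, 0.71 and 0.40 with oil and 0.66, −0.51 and 0.55 with treatment. Treated animals 1 and 3 were within the oil range, and treated animal 2 was far below. The difference of −0.24 ± 0.33 (SE) rested on that animal, since it was 0.13 without it.

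Cxcl12, the stromal ligand of Cxcr4 and Ackr3, read 3.13, 3.67 and 3.65 with oil and 3.15, 2.95 and 3.13 with treatment. Oil animals 2 and 3 were above all treated animals, but oil animal 1 lay among them. The difference was −0.40 ± 0.17 (SE), 0.756-fold, and −0.58 with the slide as a block, where oil animal 1 does not count. A second probe gave −0.39, and another probe, assigned to a different transcript accession of the gene, gave −0.22. The groups overlapped on all 3 probes.

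Cxcl14, an epithelial and stromal chemokine whose receptor use is less settled, had the highest difference of the 9. It read −0.40, 0.31 and −0.25 with oil and −0.09, 1.91 and 0.64 with treatment. Treated animal 2 stood far above all others, treated animal 3 was above the oil range, and treated animal 1 was inside it. The difference was 0.93 ± 0.51 (SE), 1.91-fold, and 0.39 without treated animal 2. The second probe followed the same pattern, with −3.58, −3.35 and −3.94 against −3.40, −1.62 and −2.69 and a difference of 1.05. Its pooled SD of 0.76 exceeded that of 96.8% of genes.

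**Figure D2:**
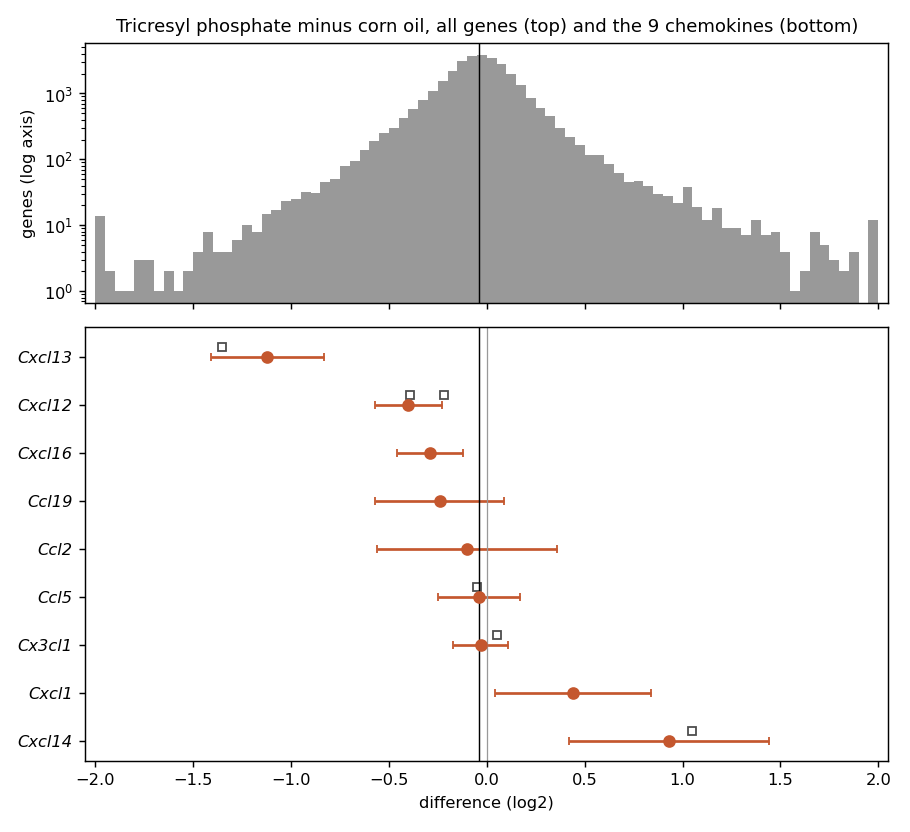
Difference between tricresyl phosphate and corn oil animals on the log2 scale, for all 31637 genes (top, log count axis, end bars also holding genes beyond the axis) and for the 9 chemokines (bottom, circles with SE bars, open squares for further probes). The black line is the median of all genes, −0.04; Cxcl13 lies at −1.12 and Cxcl14 at 0.93, and the rest lie between −0.40 and 0.44.

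Of the membrane-bound pair, Cxcl16 had a pooled SD of 0.23, about that of Cxcl12, and Cx3cl1 had a smaller one. Cxcl16, the ligand of Cxcr6, read 4.69, 4.61 and 4.13 with oil and 4.05, 4.21 and 4.28 with treatment. Oil animals 1 and 2 were higher than every treated animal and oil animal 3 was not. The difference was −0.29 ± 0.17 (SE), −0.47 without oil animal 3 and −0.19 with the slide as a block. Cx3cl1, fractalkine, read 5.16, 5.40 and 4.96 with oil and 5.24, 5.18 and 5.0 with treatment. The groups lay on top of each other, with a difference of −0.03 ± 0.14 (SE) on this probe and 0.05 on the second. The sign of Cx3cl1 turned under quantile (0.07), normexp (0.08) and cyclic loess (0.06) scaling. It had the narrowest pooled SD of the 9, 0.18, close to the median gene.

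The 3 inflammatory chemokines varied mostly between animals of a group. Ccl2, the monocyte attractant of Ccr2, read −0.80, −1.04 and −2.50 with oil and −1.26, −1.90 and −1.47 with treatment. Oil animals 1 and 2 were the highest of all and oil animal 3 the lowest of all. The difference was −0.10 ± 0.46 (SE), and it ranged from −0.62 without oil animal 3 to 0.23 with the slide as a block. Cxcl1, a neutrophil attractant acting on Cxcr2, read −4.33, −4.39 and −5.34 with oil and −4.11, −4.93 and −3.68 with treatment. Here too oil animal 3 was the lowest of all, and treated animal 3 was the highest. The difference was 0.44 ± 0.40 (SE), from processed signals of only 25 to 94, and it was 0.11 under normexp. It was also 0.11 without oil animal 3, 0.16 without treated animal 3 and 0.79 without treated animal 2. Ccl5, a T cell and monocyte attractant, read 1.97, 1.35 and 1.54 with oil and 1.40, 1.89 and 1.44 with treatment. One animal in each group stood above the rest, and the difference was −0.04 ± 0.21 (SE), with −0.05 on the second probe. Its sign turned when oil animal 1 (0.13), treated animal 1 (0.04) or treated animal 3 (0.02) was left out.

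Of 27 further chemokines in a list drawn up beside the 9, 26 had a probe and 21 were tested. Lower differences were found in 12 and higher in 9, with a median of −0.03. None had groups that did not overlap on the probe used, and none passed the limma test. The largest difference was that of Ccl20, a ligand of Ccr6, which read −1.23, −2.75 and −2.38 with oil and −1.40, −1.67 and 0.39 with treatment. Treated animals 1 and 2 lay inside the oil range and treated animal 3 above it, and the difference of 1.23 ± 0.64 (SE) had an adjusted limma p of 0.811. Ccl11, the eosinophil attractant eotaxin, differed by 0.62 ± 0.32 (SE), with an adjusted limma p of 0.811. Its treated animal 3, at −4.16, lay inside the oil range of −4.39 to −3.85. Ccl24 was measured by 2 probes that disagreed. The used one, with processed signals of 20768 to 24437, overlapped at −0.13. The other, with signals of only 47 to 122, had separate groups in the higher direction at 0.76. Ccl1, Ccl25, Ccl26, Cxcl2 and Cxcl6 were well above background on fewer than 3 arrays and were not tested.

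**Figure D3:**
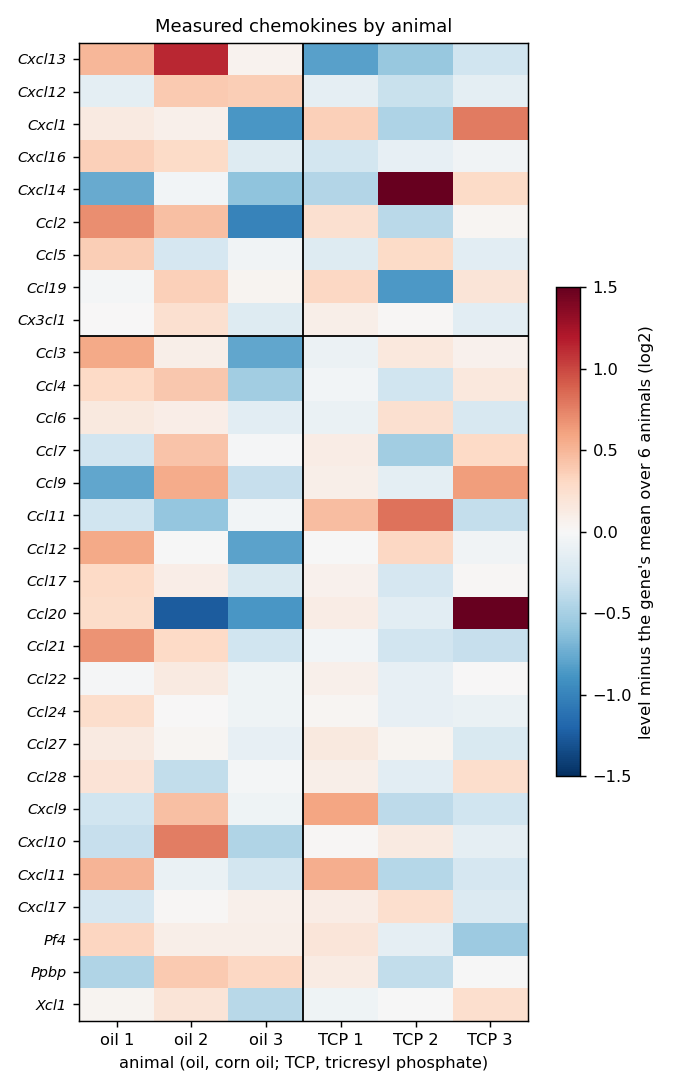
Level of each of 30 measured chemokines in each animal minus the gene's mean over the 6 animals (log2, red above and blue below the mean). The 9 described chemokines are above the horizontal line and corn oil animals left of the vertical line, and values past the end of the scale take its end colour. Only the Cxcl13 row separates the groups; oil animal 3 is the lowest in 8 rows and the highest in 0.

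Several of the 9 sit in chemokine clusters. Within 3 protein-coding genes on each side in RefSeq on GRCr8, Ccl2 lies with Ccl7, Ccl11 and Ccl12, Ccl5 with Ccl9, Ccl6 and Ccl3, Ccl19 with Ccl27 and Ccl21, Cx3cl1 with Ccl17 and Ccl22, and Cxcl1 with Cxcl2, Cxcl3 and Pf4. Cxcl13, Cxcl12, Cxcl16 and Cxcl14 had no chemokine within that window. Of the neighbours, the differences of Ccl7, Ccl12, Ccl9, Ccl6 and Ccl3 were −0.08, 0.17, 0.38, −0.06 and 0.09. Those of Ccl27, Ccl21, Ccl17, Ccl22 and Pf4 were −0.03, −0.45, −0.12, −0.03 and −0.33. Neighbours of one chemokine thus had both signs around Ccl2 and Ccl5.

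The receptors were examined next, and 20 of 23 in the list had a probe. Cxcr5, the receptor of Cxcl13, was well above background on none of the 6 arrays with either of its probes. Ackr2, a scavenger of CC chemokines, was not either, and Cxcr2, the receptor of Cxcl1, was so on only 2 arrays. Of the 12 receptors tested, 10 had lower and 2 higher differences, with a median of −0.13, and none passed the limma test. That median was −0.07 under normexp, 0.02 without treated animal 3 and 0.05 without oil animal 2 and treated animal 3 together.

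Ackr3, the scavenging receptor of Cxcl12, read 0.53, 0.48 and 0.05 with oil and 0.63, 0.54 and 1.02 with treatment. All treated animals were above all oil animals, though treated animal 2 only by a small step. The difference was 0.38 ± 0.19 (SE), and its adjusted limma p 0.811. Cxcr4, the signalling receptor of the same ligand, differed by 0.06 ± 0.16 (SE) with an adjusted limma p of 0.949. Ccr9, the gut-homing receptor, had separate groups in the lower direction, at −0.19 ± 0.10 (SE) with an adjusted limma p of 0.811.

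The groups of Ccr2, Ccr7, Cxcr6 and Cx3cr1 overlapped on the used probes. A second Ccr2 probe, well above background on only 2 arrays, both treated, had separate groups in the higher direction, at 0.46. On the used probe Ccr2, the receptor of Ccl2, differed by −0.07 ± 0.18 (SE), from processed signals of only 20 to 33. Ccr7, the receptor of Ccl19, differed by −0.15 ± 0.32 (SE). Cxcr6, which binds Cxcl16, differed by −0.04 ± 0.36 (SE) and Cx3cr1, which binds Cx3cl1, by −0.16 ± 0.17 (SE). Their adjusted limma p-values were 0.945, 0.931, 0.986 and 0.858.

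**Figure D4:**
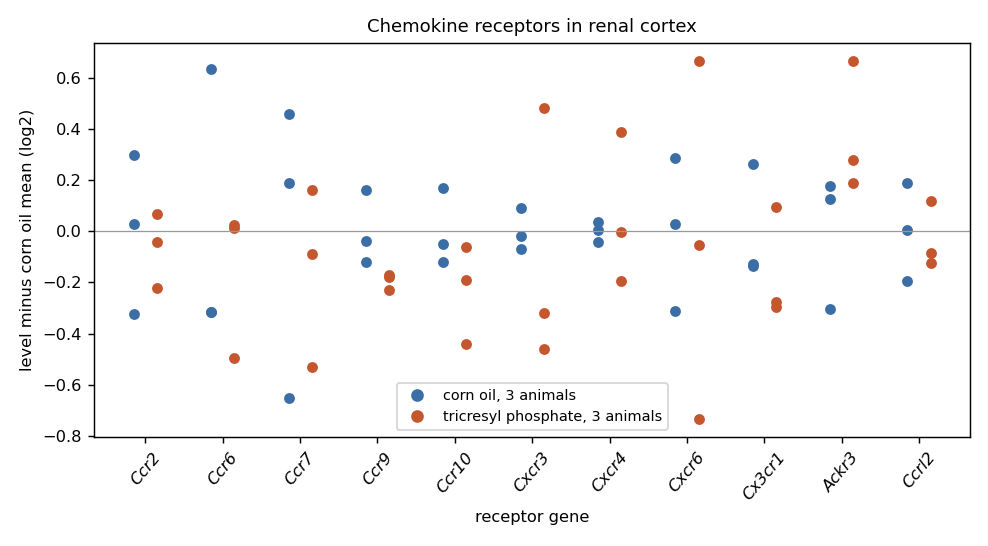
Levels of 11 tested chemokine receptors in each animal, minus the corn oil mean of the receptor (log2), for 3 corn oil and 3 tricresyl phosphate animals. Ackr3 is higher in every treated animal, and Ccr9 is lower in every treated animal; the other 9 overlap.

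Proteases that release or trim chemokines and the metalloproteinase inhibitors Timp1, Timp2 and Timp3 gave no calls. Of these 9 genes, 6 were lower and 3 higher, with a median of −0.07 and no separate groups. The sheddases of Cxcl16 and Cx3cl1, Adam10 and Adam17, differed by −0.03 ± 0.13 (SE) and 0.07 ± 0.09 (SE), and Dpp4, which truncates Cxcl12, by −0.08 ± 0.11 (SE). The protease Mmp9, at −0.26 ± 0.26 (SE), and the inhibitor Timp2, at −0.19 ± 0.11 (SE), had the largest differences, with adjusted limma p-values of 0.851 and 0.811.

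In the NF-kB and lymphotoxin list, 19 of 27 genes had a probe, and Relb was among those without one. Of 18 tested genes 10 were higher and 8 lower, with a median of 0.01 and 0 calls by limma. Ltbr, the lymphotoxin beta receptor upstream of Cxcl13 in lymphoid stroma, read 3.74, 3.63 and 3.65 with oil and 3.63, 3.61 and 3.60 with treatment. The difference was −0.06 ± 0.08 (SE), and a second Ltbr probe gave 0.15 with overlap. Its ligand gene Ltb differed by 0.07 ± 0.14 (SE) and the kinase Map3k14 by −0.14 ± 0.16 (SE). Rela had separate groups in the higher direction on 2 of 3 probes, 0.14 ± 0.09 (SE) on the used one, and so had the used probe of Nfkb2, 0.09 ± 0.08 (SE). A second Nfkb2 probe had separate groups in the opposite direction, at −0.18. The largest differences were those of the cytokines Il1b, −0.22 ± 0.37 (SE), and Tnf, 0.20 ± 0.27 (SE), with adjusted limma p-values of 0.912 and 0.887. A second Il1b probe gave 0.05.

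Markers of the cells that make or follow these chemokines were set beside Cxcl13, and none of their genes passed the limma test. The B and plasma cell list, 6 of 9 tested, had a mean level of −3.38 to −3.01 in oil and −3.30 to −2.96 in treated animals. In it 4 genes were higher and 2 lower. Pax5 differed by 0.35 ± 0.22 (SE), Cd22 by −0.48 ± 0.28 (SE) and Cd79b by −0.33 ± 0.23 (SE). Cd22 and Cd79b were dim, with processed signals of 14 to 31 and 26 to 46. Both were well above background on 3 oil arrays, but on only 1 and 2 treated arrays. Cr2, which marks B cells and follicular dendritic cells, was well above background on 0 arrays. The fibroblast and reticular stroma list ran from 1.37 to 1.67 and from 1.26 to 1.54, with 6 of 10 lower. In it Col1a1 was lower in every treated animal on 1 of 3 probes, −0.38 ± 0.16 (SE), with overlap at −0.31 and −0.14 on the others. Dcn differed by −0.52 ± 0.33 (SE), while Madcam1 was well above background on 0 arrays. The macrophage and dendritic cell list ran from 0.83 to 0.88 in oil and from 0.64 to 0.83 in treated animals. Its members Aif1 and Clec10a differed by −0.51 ± 0.25 (SE) and −0.45 ± 0.25 (SE), and the other Aif1 probes gave −0.29 and −0.31. Cd74 differed by 0.37 ± 0.20 (SE). In this list 8 of 13 were lower and 5 higher, where 59.2% of all genes were lower. The T and NK cell list ran from −2.99 to −2.74 and from −3.03 to −2.96, with 7 of 13 lower and 6 higher. Cd3g differed by −0.50 ± 0.21 (SE) and Cd8a by −0.38 ± 0.23 (SE) with overlap. Cd2 and Cd3d were lower in every treated animal, at −0.37 ± 0.20 (SE) and −0.27 ± 0.10 (SE). For Cd2 the processed signals were only 23 to 38, and the groups barely parted, at −5.36 in oil animal 3 and −5.37 in treated animal 3. Cd3e, Cd4 and Lck differed by 0.10, 0.12 and 0.14, while a second Cd4 probe gave −0.61. The part of the stroma, macrophage and T cell markers in the Cxcl13 difference was not tested.

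In the endothelial list 5 of 9 members were higher. Flt1 was higher in every treated animal on 1 of its 3 probes, 0.56 ± 0.15 (SE) with an adjusted limma p of 0.811, and the other probes overlapped at 0.22 and 0.25. Plvap was lower in every treated animal on 1 of its 2 probes, −0.17 ± 0.09 (SE). The neutrophil list had 4 of 5 higher, with S100a9 at 0.15 ± 0.33 (SE) and Camp at 0.11 ± 0.18 (SE). Among nephron markers, the distal nephron genes Atp6v1b1 (0.20 ± 0.11, SE) and Aqp3 (0.18 ± 0.09, SE) were higher in every treated animal, and neither passed. Synpo, a podocyte gene, differed by 0.52 ± 0.43 (SE) with overlap. In the proximal tubule list 6 of 8 were lower, with Ggt1 at −0.17 ± 0.11 (SE) and Slc5a2 at −0.13 ± 0.10 (SE). That list's median of −0.10 turned to 0.03 under quantile, 0.01 under normexp and 0.04 under cyclic loess scaling.

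Liver transcripts set 2 animals apart. Alb, albumin, read −2.47, 2.62 and −1.61 with oil and −0.11, −0.15 and 2.21 with treatment. Ttr, transthyretin, read −3.53, 1.88 and −2.52 with oil and −0.63, −0.62 and 1.51 with treatment. Oil animal 2 and treated animal 3 were the highest in both, and each was also the highest of its group for Cxcl13. Without both animals the Cxcl13 difference was −0.96. Differences of Alb and Ttr were 1.14 ± 1.42 (SE) and 1.48 ± 1.46 (SE), with adjusted limma p-values of 0.876 and 0.85. The red cell genes of the same list were lower in every treated animal on the used probe, with treated animal 3 the lowest of all in each. That animal was also the lowest in 28.2% of all genes. Hbb, beta globin, read 7.63, 7.48 and 7.46 with oil and 7.4, 7.09 and 7.06 with treatment, a difference of −0.34 ± 0.12 (SE), and its groups overlapped on a second probe. Alas2, the erythroid haem synthesis enzyme, differed by −0.34 ± 0.10 (SE). Epb42, a red cell membrane protein gene, differed by −0.31 ± 0.09 (SE), from processed signals of only 35 to 47. All 3 had an adjusted limma p of 0.811, and their part in the Cxcl13 difference was not tested.

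**Figure D5:**
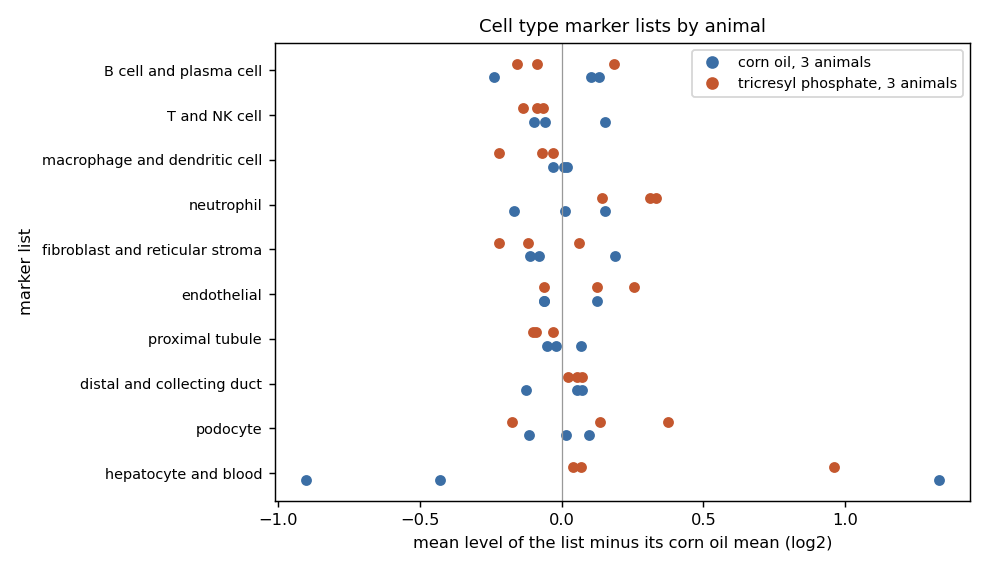
Mean level of each cell type marker list in each animal, minus the list's mean over the corn oil animals (log2), for 3 corn oil and 3 tricresyl phosphate animals. The B cell and stroma lists overlap between the groups, and the hepatocyte and blood list is highest in 1 oil animal and 1 treated animal.

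The genes whose pattern over the 6 animals was most like that of Cxcl13 were sought among 1483 genes. These had a symbol, other than one starting with LOC, RGD or AABR, and a range of at least 1 on the log2 scale. Likeness was Pearson's r over 6 animals, given as a description of the closest matches picked from many. The first 5 were Or8k39 (0.966), Cacna1h (0.961), Tas1r2 (0.947), Cct8l2 (0.942) and Syce1 (0.938). Cacna1h, a T-type calcium channel subunit, read −1.18, −0.59 and −1.26 with oil and −1.86, −2.02 and −1.5 with treatment. Like Cxcl13 it was highest in oil animal 2 and its groups did not overlap, which follows largely from its choice by likeness. Or8k39 and Tas1r2 were dim, at −5.87 to −4.45 and −6.08 to −4.83. Cct8l2 and Syce1 also read low, at −5.17 to −3.62 and −5.45 to −3.0. None of the 5 was a chemokine or a receptor of one.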

How the data were processed

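Scans were quantified by the authors in Agilent Feature Extraction (10.7 in the submitters' processing notes, 10.7.1.1 in the file headers). The deposited values are linear intensity values, namely a background-subtracted processed signal and median spot and background signals. The value table deposited by the authors gives the processed signal over a constant for each array. Over probes above a signal of 1000, the coefficient of variation of that ratio was at most 0.0015%. Its column medians were 0.1094 to 0.1152, and it is linear and uncentred.

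The log2 processed signal minus each array's 75th percentile was used, without 1439 control spots and 77 outlier spots. Probes well above background on at least 3 of 6 arrays were kept (43099, with 18438 removed). The kept probe with the highest mean stood for a gene. Accessions matched to the RefSeq table of GRCr8 named 28206 probes, 0 had several symbols and 33331 had none. The groups of 3 animals, separate replicates per the study design, were compared over all 31637 genes by limma 3.58.1 in R 4.3.3, with no covariate and a threshold of 0.05. The number of arrays limits the precision.

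The members and lists were chosen with earlier results of these data known. Named are all 9 chemokines, the receptors that bind them, the 2 largest differences of every other list, and the 5 genes most like Cxcl13; some of these are not reported here. Adam10, Adam17, Dpp4, Ltbr, Ltb, Map3k14, Rela, Nfkb2, Ccl24, Cd22, Cd79b, Cd2, Cd3d, Cd3e, Cd4, Lck, Cd74, Plvap, Hbb, Alas2, Epb42, Ccr9 and the genomic neighbours were named after their values were seen. The alternatives were other normalizations (quantile, cyclic loess), normexp (offset 50) before quantile normalization, the authors' table, other filters and probe rules, a trended robust variance, the slide as a block, a replicate block, and each animal left out in turn. Normexp used the median spot signal in place of the mean spot signal.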

Additional observations from a re-analysis of the deposited data

How the results depend on the processing

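The Cxcl13 difference, whose sign chose the genes, ranged from −1.37 to −0.83 over 18 alternatives. It was −1.12 under quantile, −1.08 under normexp, −1.12 under cyclic loess, −1.12 with the authors' table and −1.23 with the mean of both probes. Several alternatives could not move it. The other filters, outlier spots kept, the trended robust variance and the replicate block left the estimate as it was. The authors' table is the processed signal over a constant for each array, 938.0 to 1211.1. These constants lie close to the 75th percentiles used here, 936.5 to 1209.8, so it is nearly the same scaling. The slide as a block gave the same −1.15 as leaving out oil animal 1. Cxcl12, Cxcl16, Cxcl1 and Cxcl14 also kept their signs, while Ccl2, Ccl5, Ccl19 and Cx3cl1 changed sign in 5, 4, 1 and 7 alternatives. The count of genes changed, 0, became 2 under normexp and 2 with the trended robust variance, Galnt3 and an unnamed transcript both times. It ranged from 0 to 1 when single animals were left out, with Zp2 called without treated animal 2 and the unnamed transcript without treated animal 3. The count of genes whose groups do not overlap, 3727, ranged from 5897 to 8627 without single animals and was 10334 without oil animal 2 and treated animal 3, since fewer animals per group overlap less often. That last alternative was chosen after seeing the data. Of 666 other results compared, 651 stayed the same and 15 moved. Differences and medians were judged against their spread within groups, and counts by their ratio to the main count. Many of the 666 were counts of called genes in the lists, which were 0 in the main fit. The replicate numbers did not pair the samples: same-numbered animals deviated from their group means with correlations of 0.09, −0.05 and −0.04. With the replicate number as a block, limma called 0 genes and the Cxcl13 difference was −1.12. With 3 animals a group, and processed signals of 25 to 94 for Cxcl1, small differences of the dimmer chemokines were not detectable.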

Other observations

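Over the 30 measured chemokines, oil animal 3 was the lowest of the 6 in 8 (Cxcl1, Ccl2, Cx3cl1, Ccl3, Ccl4, Ccl12, Cxcl10 and Xcl1) and the highest in 0, against 13.1% and 17.5% over all genes. In the same animal Il1b, at −2.04, and Nfkbia, the NF-kB inhibitor that NF-kB induces, at 1.28, were also the lowest of the 6. Treated animal 2 was the lowest in 8 chemokines as well, among them Cxcl12, Ccl19, Cxcl9 and Cxcl11, against 17.4% over all genes. Oil animal 2 was the highest in 9, against 16.2%.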
